A study of Mus musculus with 12 samples.

Results

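Class-switched plasma cells are antibody-secreting cells that have exchanged the IgM constant region for IgG, IgA or IgE. They were taken here as the cells that the authors annotated as plasma cells and whose heavy-chain contig carried an IGHG1, IGHG2B, IGHG2C, IGHG3, IGHA or IGHE constant region. This gave 467 cells of 22285 spleen cells in all, and of 650 annotated plasma cells. The spleens came from 4 male mice. Of these, 2 were WT (C57BL/6), and the other 2, called SLE.yaa, were B6.Sle1yaa, a lupus model that joins the Sle1 susceptibility interval with the Y-linked autoimmune accelerator. No treatment is named for either group. The labels give an age of 14.4 for WT and 14.9 for SLE.yaa without a unit, so age and genotype cannot be told apart. Cells carrying CD45 were enriched with beads before droplet capture, with separate libraries per mouse for transcripts and for the receptors of B and T cells.

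Plasma cells form when an activated B cell turns on the regulators Blimp-1 (Prdm1), Irf4 and Xbp1, expands its endoplasmic reticulum and secretes its antibody. Class switching joins the rearranged V region to a constant gene downstream of the IgM exons and deletes the DNA between them, so that specificity is kept while the effector function of the antibody changes. In mice, interferon-gamma and Toll-like receptor signals favour IgG2c, which is the C57BL/6 form of IgG2a and a leading autoantibody class in lupus models, and transforming growth factor beta favours IgA.

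SLE.yaa 1 held 235 of the class-switched plasma cells and SLE.yaa 2 held 230, while each WT mouse held 1, an IgA cell. IgM plasma cells numbered 96 and 49 in SLE.yaa 1 and SLE.yaa 2, and 10 in each WT mouse. Class-switched cells were 71.0% (65.8 to 75.8, exact Clopper-Pearson 95% interval) of the plasma cells with an isotype in SLE.yaa 1 and 82.4% (77.5 to 86.7) in SLE.yaa 2. In each WT mouse they were 1 of 11, or 9.09% (0.230 to 41.3). Both SLE.yaa mice lay above both WT mice, with means of 76.7% ± 8.09 (SD, n = 2) and 9.09% (n = 2). The difference of 67.6 percentage points gave a two-sided exact permutation p of 0.333, which is the smallest that 2 mice against 2 allow. Intervals cover counting error only, and 11 of the 467 barcodes also occurred in the expression library of another mouse.

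IgG2c was the leading isotype in both SLE.yaa mice, with 123 of 331 cells (37.2%) in SLE.yaa 1 and 112 of 279 (40.1%) in SLE.yaa 2. IgG2b followed with 57 cells (17.2%) and 69 cells (24.7%). IgG3 made up 17 cells (5.14%) and 31 cells (11.1%). Among the switched isotypes, the widest gap between the 2 mice in percentage points was that of IgG2b. IgG1, the subclass favoured by interleukin-4, made up 16 cells (4.83%) and 6 cells (2.15%), and IgA 22 cells (6.65%) and 12 cells (4.30%). No IgE cell was seen in either mouse, where counts of 0 allow shares of up to 1.11% and 1.31% (exact upper bounds).

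**Figure D1:**
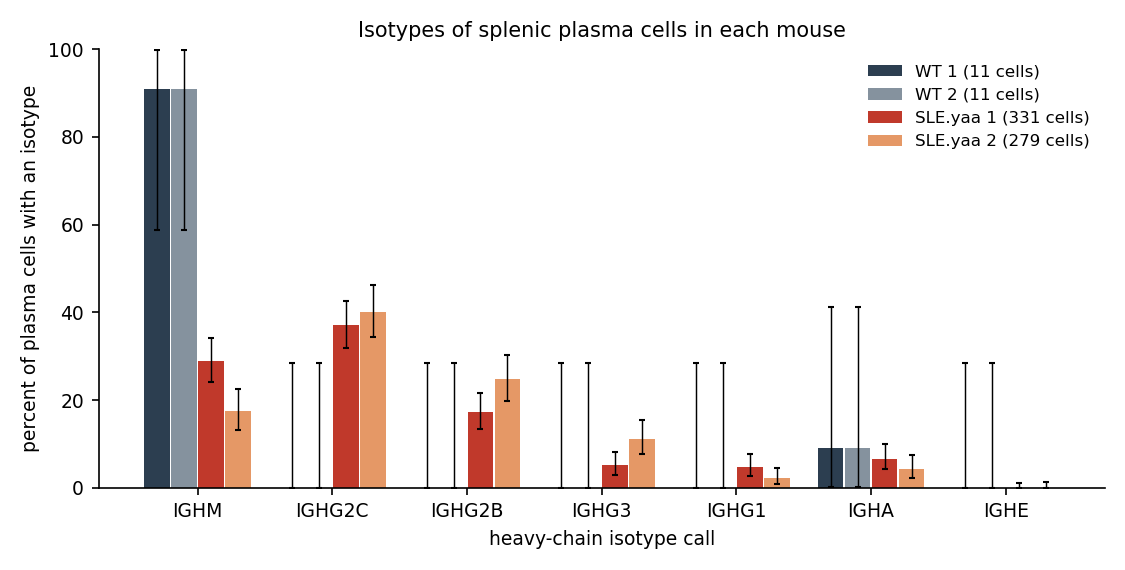
Percent of plasma cells with each heavy-chain isotype call in each of the 4 mice, with exact 95% binomial intervals as bars. IGHM leads in both WT mice at 90.9% of 11 cells, and IGHG2C leads in both SLE.yaa mice at 37.2% and 40.1%.

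The receptor sequences show how the class-switched cells relate to one another. The 235 and 230 cells fell into 185 and 143 of the authors' clones, and 33.6% (27.6 to 40.0) and 52.6% (45.9 to 59.2) of the cells belonged to clones of 2 or more class-switched plasma cells. In IgM plasma cells of the same mice these shares were 41.7% (31.7 to 52.2) and 28.6% (16.6 to 43.3). The order of the classes was therefore opposite in the 2 mice, and the intervals of the classes overlapped in SLE.yaa 1. Such shares rise with the number of cells sampled, and the IgM cells numbered 96 and 49. The intervals also treat cells of a clone as independent, so no difference between the classes is read from these shares. Clones of 5 or more class-switched cells numbered 3 in SLE.yaa 1 and 8 in SLE.yaa 2, and the largest held 7 and 13 cells. Heavy-chain junctions of 5 of these 11 clones are printed because they show expansion within 1 isotype or spread over several, with the CDR3 in capitals and the flanking conserved codons in lower case, 5′ to 3′ as in the deposited table, in the form carried by the most cells of the clone:
Clone 4, IGHV1-26 with IGHJ1, SLE.yaa 2: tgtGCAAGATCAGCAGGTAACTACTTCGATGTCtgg
Clone 8, IGHV1-53 with IGHJ4, SLE.yaa 2: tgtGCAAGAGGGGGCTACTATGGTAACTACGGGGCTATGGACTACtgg
Clone 5, IGHV1-72 with IGHJ4, SLE.yaa 2: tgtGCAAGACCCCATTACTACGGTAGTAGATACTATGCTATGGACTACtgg
Clone 9, IGHV4-1 with IGHJ1, SLE.yaa 2: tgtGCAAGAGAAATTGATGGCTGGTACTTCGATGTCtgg
Clone 3, IGHV5-9-1 with IGHJ4, SLE.yaa 1: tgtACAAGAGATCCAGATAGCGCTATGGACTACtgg

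Clone 4 was the largest, with 13 plasma cells that were all IgG2b and 10 different junctions, 4 cells sharing the printed one. Clone 8 held 7 cells, all IgG3, with 5 junctions. Clone 5 spread over 4 IgG2c, 3 IgG2b and 1 IgA cell, and clone 9 over 2 cells each of IgG2c, IgG2b and IgG3. In clone 3, 4 IgG2c cells and 1 IgA cell carried the same junction. Of the clones with 2 or more class-switched cells, 6 of 29 in SLE.yaa 1 and 9 of 34 in SLE.yaa 2 held more than 1 switched isotype. IgM plasma cells shared 4 and 2 of the switched clones (2.16% and 1.40% of switched clones, 5.63% and 5.0% of IgM clones), and annotated B cells shared 5 and 10 (2.70% and 6.99% of switched clones). In SLE.yaa 1, 3 of the 4 clones shared with IgM cells held IgG3 cells, or 21.4% of its 14 IgG3 clones. Heavy-chain cells without an expression profile shared 66 and 35 of the switched clones (35.7% and 24.5%). IgA clones overlapped with IgG2c clones in both mice. In SLE.yaa 2, 4 of 12 IgA clones (33.3%) were also found among 77 IgG2c clones (5.19%). In SLE.yaa 1, 3 of 19 IgA clones (15.8%) were found among 100 IgG2c clones (3.0%).

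**Figure D2:**
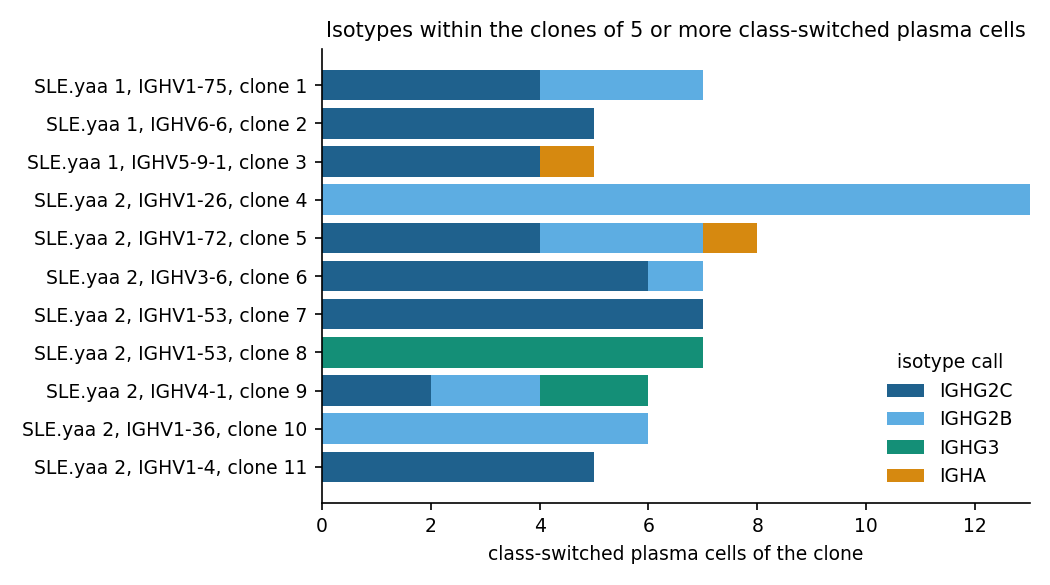
Number of class-switched plasma cells of each isotype call in the 11 clones with 5 or more such cells, named by mouse, IGHV gene and clone number. Clone 4 holds 13 IGHG2B cells, whereas clones 5 and 9 hold cells of 3 isotypes each.

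Somatic hypermutation, which B cells acquire mainly in germinal centres and at extrafollicular sites, lowers the identity of the V region to its germline gene. Mean identity in class-switched plasma cells was 98.9% in SLE.yaa 1 and 98.9% in SLE.yaa 2. In IgM plasma cells it was 99.3% and 98.6%. The difference, switched minus IgM, was -0.35 percentage points in SLE.yaa 1 and 0.31 in SLE.yaa 2, so the direction was not shared. Heavy chains identical to the germline made up 31.9% (26.0 to 38.3) and 27.0% (21.3 to 33.2) of class-switched plasma cells, 58.3% (47.8 to 68.3) and 32.7% (19.9 to 47.5) of IgM plasma cells, and 95.5% and 95.6% of IgM cells annotated as B cells. Both plasma cell classes lay far below these IgM B cells in both mice. Class-switched cells annotated as B cells, 51 and 79 in number, had shares of 31.4% and 30.4%, near those of class-switched plasma cells. Among isotypes with 10 or more cells, mean identity ran from 98.3% (IgG3, SLE.yaa 1) to 99.4% (IgG1, SLE.yaa 1). The CDR3 had a mean length of 12.3 and 12.2 residues in switched and 11.7 and 11.4 in IgM plasma cells.

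IGHV gene use was compared on clone counts with edgeR's quasi-likelihood test over the 4 genes with enough clones, of which 0% were called. IGHV1-26, the gene of clone 4, served 17 of 185 and 12 of 143 switched clones (9.19% and 8.39%), against 6 of 71 and 2 of 40 IgM clones. IGHV1-53 reached an unadjusted p under 0.05 and no other gene did. It served 1 and 5 switched clones against 1 and 5 IgM clones. Its log2 change was -1.70 and its Benjamini-Hochberg adjusted p in the edgeR fit was 0.161.

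Constant gene transcripts were set beside the isotype calls. The constant gene of the cell's own isotype had the highest value of all heavy-chain constant genes in 234 of 235 and 230 of 230 class-switched cells of SLE.yaa 1 and SLE.yaa 2, and within each isotype it held at least 98.3% of those values. Levels below are given as vpm: the deposited depth-adjusted values, averaged over the cells of a class in a mouse and scaled to a sum of 1000000. In the tested comparisons further below they are also TMM-scaled, which shifts them slightly. Ighg2c reached 63467 and 82032 vpm in class-switched cells, 89.1 and 65.4 in IgM plasma cells and 244 and 65.4 in CD4 T cells of the same mice, which should lack it. The plasma cell markers Jchain, which links antibody polymers, Mzb1, a chaperone of antibody assembly, and Creld2, an endoplasmic reticulum stress protein, were also present. Class-switched cells had 55630 and 34986 vpm of Jchain, 7093 and 7912 of Mzb1, and 2543 and 2403 of Creld2, against 131 and 27.0, 33.6 and 15.7, and 57.8 and 41.0 in CD4 T cells. Cells annotated as B held more Jchain (1750 and 763 vpm) and Mzb1 (452 and 445) than CD4 T cells, and 57.1 and 48.9 of Creld2. In cells annotated as B-early, Jchain reached 11984 vpm in SLE.yaa 1 and 397 in SLE.yaa 2, and Mzb1 754 and 410. Lambda transcripts exceeded kappa in 4 and 3 of the class-switched cells, and none of the 650 plasma cells had a T cell receptor.

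Markers of other cell types were scarce in both classes. Over the 9 T cell markers in the table the summed level was 29.6 and 16.8 vpm in class-switched cells and 15.3 and 0 in IgM cells. The 13 monocyte and macrophage markers summed to 70.1 and 204 in class-switched and 143 and 204 in IgM cells, with Apoe the leading gene except in class-switched cells of SLE.yaa 1 (6.51 and 142 against 84.0 and 197, log2 -1.48, a call that was lost with robust variance and without the mouse block). Neutrophil, NK, erythroid and platelet lists each summed to at most 30.3 vpm in any of the 4 class profiles, and among the class-switched cells 1 T cell marker, 3 neutrophil, 4 NK, 5 erythroid and 4 platelet markers were at 0. Median UMIs per cell were 10508 and 10715 in class-switched and 9284 and 10547 in IgM cells. Ribosomal protein UMIs made up 10.0% and 9.38% against 13.2% and 11.03%, and were lower in class-switched cells of both mice. The part of this share in the gene differences below was not tested.

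Class-switched plasma cells were compared with IgM plasma cells within the SLE.yaa mice by limma on log2(vpm + 10), with the mouse as a block and Benjamini-Hochberg adjustment over all 8036 genes tested. Differences on this scale understate the change of genes with low levels. In all, 173 genes rose (2.15% of those tested) and 174 fell (2.17%), 4.32% together, at an adjusted p under 0.05. These hold 7 immunoglobulin genes: the heavy-chain constant genes Ighg1, Ighg2b, Ighg2c, Ighg3, Igha and Ighm, which follow from the isotype call and are description only, and the light-chain gene Iglc4, which fell. Leaving them out leaves 168 genes that rose and 172 that fell. All 347 differed in the same direction in both mice, but a paired fit on 2 mice hardly calls a gene otherwise. This, and the remarks below that classes did not overlap or were well apart, are therefore description and no separate support. Without the mouse block 26 genes rose and 51 fell. With 2 mice the fit has 1 residual degree of freedom, so its p-values lean on the spread shared across genes (27.8 prior degrees of freedom).

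**Figure D3:**
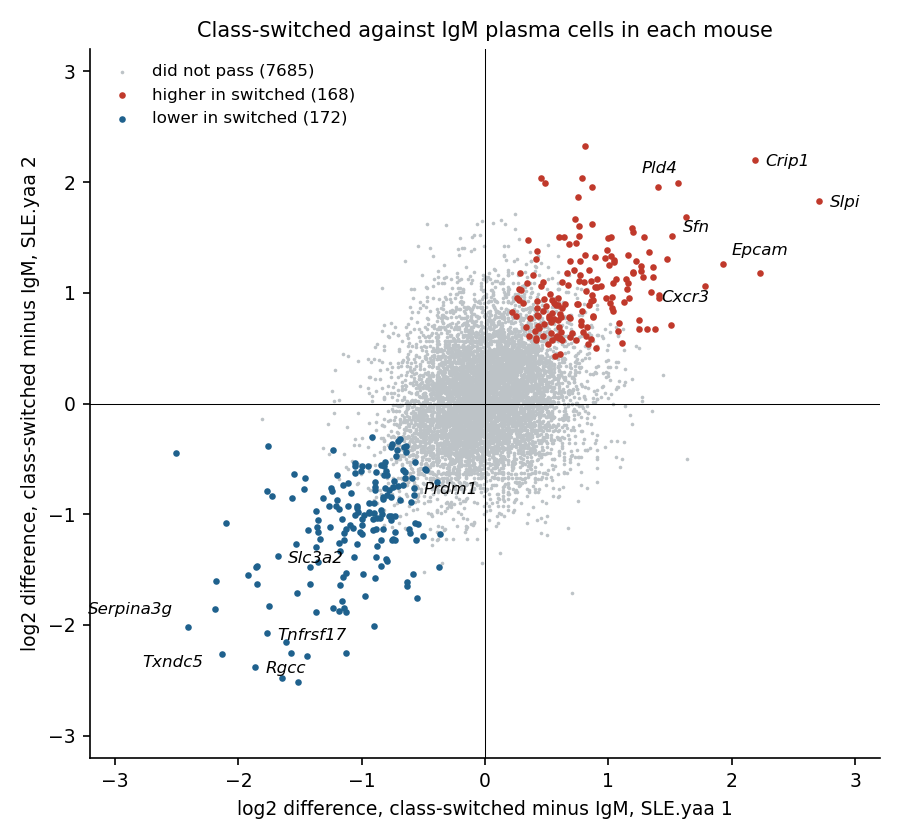
Log2 difference between class-switched and IgM plasma cells in SLE.yaa 1 (horizontal) and SLE.yaa 2 (vertical), 1 point per gene, immunoglobulin constant genes left out; 168 genes that rose in red and 172 that fell in blue at an adjusted p under 0.05. Crip1 and Slpi stand at the upper right, and Txndc5, Rgcc and Serpina3g at the lower left, in both mice.

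Among the genes that rose most, Slpi encodes a secreted inhibitor of serine proteases and stood at 1894 and 2129 vpm in IgM cells of SLE.yaa 1 and SLE.yaa 2 and at 12458 and 7606 in class-switched cells. Its log2 difference was 2.27 ± 0.20 (SE, n = 2 mice; limma adjusted p = 2.55e-09). Crip1, a small LIM-domain protein, went from 95.5 and 90.8 to 470 and 452 vpm (log2 2.19 ± 0.15). Neither gene's classes overlapped. Pld4, an endosomal exonuclease that degrades nucleic acids that Toll-like receptors would otherwise sense, went from 76.4 and 56.7 to 218 and 249 vpm (log2 1.68 ± 0.17). Epcam, a cell adhesion molecule, went from 53.5 and 87.0 to 231 and 223 (log2 1.60), and Sfn, the 14-3-3 sigma protein, from 64.9 and 64.3 to 205 and 202 (log2 1.52). Other genes that rose most were Upp1 (1.78), Cldn7 (1.70), 9530018F02Rik (1.66) and Coro1a (1.57). Of these, Coro1a did not pass without the mouse block.

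Genes that fell most were led by Serpina3g, an intracellular protease inhibitor, which stood at 158 and 212 vpm in IgM cells and at 21.7 and 44.9 in class-switched cells (log2 -2.21 ± 0.19). Its relative Serpina3f went from 68.7 and 140 to 15.2 and 16.8 vpm (log2 -2.06). Rgcc, a cell cycle regulator, went from 374 and 408 to 95.5 and 70.6 (log2 -2.12). The 2 classes were well apart for each of these genes in both mice. Ctsc, the lysosomal protease cathepsin C, had a log2 difference of -2.02, the surface glycoprotein Cd200 of -2.02, the histone deacetylase Hdac9 of -1.92, the phosphatase Ptpn6 (SHP-1) of -1.89 and the inhibitory receptor Btla of -1.88.

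Genes of plasma cell identity and surface fell more often than they rose: of 21 tested members 7 fell, 1 rose and 13 did not pass, with a median log2 difference of -0.14 against 0.03 over all genes tested. Over all genes tested 2.17% fell and 2.15% rose, which are the shares to set beside each list count here and below. A list with 1 call in a direction is not read as a change of that list. Tnfrsf17 encodes BCMA, the receptor through which plasma cells receive survival signals from APRIL and BAFF. It stood at 281 and 272 vpm in IgM cells and at 75.2 and 56.9 in class-switched cells, without overlap (log2 -1.92 ± 0.16, limma adjusted p = 1.33e-09). Tnfrsf13b (TACI), a second receptor for the same ligands, went from 338 and 276 to 197 and 160 (log2 -0.75). Among the regulators, Prdm1 went from 151 and 193 to 97.6 and 110 (log2 -0.67), the coactivator Pou2af1 from 464 and 495 to 244 and 261 (log2 -0.90) and Ikzf3 (Aiolos) from 105 and 102 to 52.8 and 44.9 (log2 -0.95). The inhibitory receptors Lag3 (log2 -1.74) and Tigit (log2 -0.92) completed those that fell. Irf4 at 468 and 624 against 485 and 504 vpm and Sdc1 (syndecan-1, CD138) at 311 and 284 against 325 and 266 did not pass, and neither did Xbp1 (log2 0.36, 95% interval 0.01 to 0.72). Without the mouse block Prdm1, Ikzf3, Tnfrsf13b and Tigit no longer passed.

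Most of the secretory apparatus did not pass the test. Of 37 tested members of the secretory machinery 4 rose, 1 fell and 32 did not pass, with a median log2 difference of 0.20. The signal sequence receptor subunit Ssr2 (log2 0.73), the prolyl isomerase Fkbp11 (0.73), the oligosaccharyltransferase subunit Ddost (0.66) and the cargo receptor Lman1 (0.49) rose, none of them without the mouse block. Txndc5, a disulfide isomerase of the endoplasmic reticulum, was the single member that fell and the one with the widest gap: 4545 and 3983 vpm in IgM cells against 1027 and 822 in class-switched cells (log2 -2.20 ± 0.16, limma adjusted p = 1.94e-11). In the unfolded protein response list, 1 of 25 tested members rose (Manf, log2 0.54) and 1 fell (Herpud1, log2 -0.55), with a median of 0.19, and neither passed without the mouse block. The chaperones Hsp90b1 (log2 0.71, limma adjusted p = 0.063) and Hspa5 (0.29, 0.390) did not pass. In the fit by isotype described below, Hsp90b1 was called against IgM in IgG2b alone, at 11785 and 13217 vpm against 6669 and 7096.

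Of the 4 markers of the cells, the 3 that the isotype call had not set did not pass in this comparison. Jchain stood at 84485 and 67344 vpm in IgM cells and 52953 and 36568 in class-switched cells (log2 -0.78, 95% interval -1.62 to 0.06, limma adjusted p = 0.361). For Mzb1 the levels were 5352 and 4584 against 6751 and 8270 (log2 0.59, adjusted p = 0.105) and for Creld2 2175 and 1778 against 2420 and 2512 (log2 0.33, adjusted p = 0.321). Ighg2c differs by the rule, so its call in the fit is description only.

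Amino acid transport and mTOR genes fell in 6 of 12 tested members and rose in 1, with a median log2 difference of -0.62 against 0.03 over all genes. Slc3a2 (CD98 heavy chain) pairs with Slc7a5 to import large neutral amino acids. It stood at 1686 and 1611 vpm in IgM cells and 519 and 613 in class-switched cells (log2 -1.53 ± 0.15), and Slc7a5 at 157 and 178 against 90.4 and 82.6 (log2 -0.88). The classes did not overlap for either subunit. Asparagine synthetase Asns (log2 -1.24), the serine synthesis enzyme Phgdh (-0.78), the mitochondrial folate enzyme Mthfd2 (-1.01) and the stress regulator Atf5 (-0.94) fell as well, and the mTOR inhibitor Ddit4 rose (0.96). Of the 7, Slc3a2 and Slc7a5 passed without the mouse block. Among 14 glycolysis genes 1 rose, the hexokinase Hk2 (log2 1.19), again not without the block. Hk2 stood at 3.82 and 7.56 vpm in IgM cells and passed the filter through class-switched cells alone, so its call is description only.

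Genes of homing, adhesion and egress rose in 8 of 19 tested members and fell in none, with a median log2 difference of 0.58. Over all genes tested 2.15% rose. Cxcr3, the receptor for the interferon-induced chemokines CXCL9 and CXCL10, went from 55.4 and 64.3 to 156 and 140 vpm (log2 1.18 ± 0.18, limma adjusted p = 5.36e-05). The integrin chains Itgb7 (log2 0.86), Itgb2 (0.74) and Itga4 (0.66), the hyaluronan receptor Cd44 (0.61) and the annexin partner S100a10 (0.58) rose, as did Crip1. Klf2, a transcription factor of lymphocyte trafficking, went from 21.0 and 0 to 38.3 and 18.4 vpm (log2 1.07) and its call was lost when IgG alone stood for the switched class. S100a10 was likewise lost with IgG alone. Without the mouse block Cxcr3 and Crip1 were the members that still passed.

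Interferon-linked genes were higher in part. Of 16 tested genes linked to interferon-gamma and the transcription factor T-bet, 7 rose and none fell, with a median of 0.80. They were Cxcr3, the GTPases Irgm1 (log2 1.09), Gbp2 (1.08), Gbp4 (1.0), Ifi47 (0.93) and Igtp (0.83), and the immunoproteasome subunit Psmb8 (0.60). Over all genes tested 2.15% rose. Tbx21, the gene of T-bet, was below the filter. In the fit by isotype described below, none of 20 tested members was called against IgM. The list's median there was 0.44 in IgG2c, 0.58 in IgG2b, 0.46 in IgG3 and -0.17 in IgA. Over all genes tested the medians were 0.02, -0.005, -0.11 and -0.17 in the same order. The IgA profiles rest on 22 and 12 cells, and whether the list differs between isotypes was not tested. Of the interferon-stimulated genes 4 of 14 rose and 1 fell, with a median of 0.41. Bst2 (tetherin) went from 277 and 299 to 529 and 631 vpm (log2 0.98), and Xaf1 had a log2 difference of 1.195 and Isg20 of 0.50. Phf11b fell (-1.07). Isg15 at 64.9 and 83.2 against 83.2 and 168 vpm did not pass. Of these 12 calls, those of Cxcr3 and Bst2 held without the mouse block.

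Survival genes were divided. Anti-apoptotic Bcl2 went from 45.8 and 41.6 to 11.6 and 4.01 vpm (log2 -1.63), whereas its relative Bcl2l1 (Bcl-xL) went from 5.73 and 11.3 to 25.3 and 31.3 (log2 1.06) and the pro-apoptotic Bcl2l11 (Bim) from 53.5 and 49.2 to 93.3 and 81.8 (log2 0.67). The other 12 of 15 tested members, Mcl1 among them, did not pass, and the list's median was 0.12. Bcl2 was the member that still passed without the mouse block. Inhibitory and Fc receptor genes fell in 3 of 8 tested members, the IgM receptor Fcmr (log2 -1.62), Ptpn6 and Pdcd1lg2 (-1.28), and rose in 1, Fcrla (0.67), with a median of -0.02. Pdcd1lg2 and Fcrla were lost without the mouse block.

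Genes of the B cell stage changed in few members. Of 12 tested B cell identity genes 3 fell, the receptor chain Cd79a (log2 -0.54), the kinase Blk (-1.59) and Swap70 (-1.03), and Cd24a rose (0.60), with a median of -0.09. In MHC class II presentation 1 of 8 rose, H2-Ab1 (log2 0.52). Among immediate early genes Btg2 rose (1.14) and Nfkbia fell (-1.07), of 12 tested. Without the mouse block Swap70 and Btg2 were the genes of these lists that still passed. No member passed among 19 proliferation genes (median log2 0.10), 10 isotype-linked regulators (-0.09) and 9 mitochondrial transcripts (-0.19). Mki67, the proliferation marker, stood at 95.5 and 117 against 107 and 118 vpm.

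**Figure D4:**
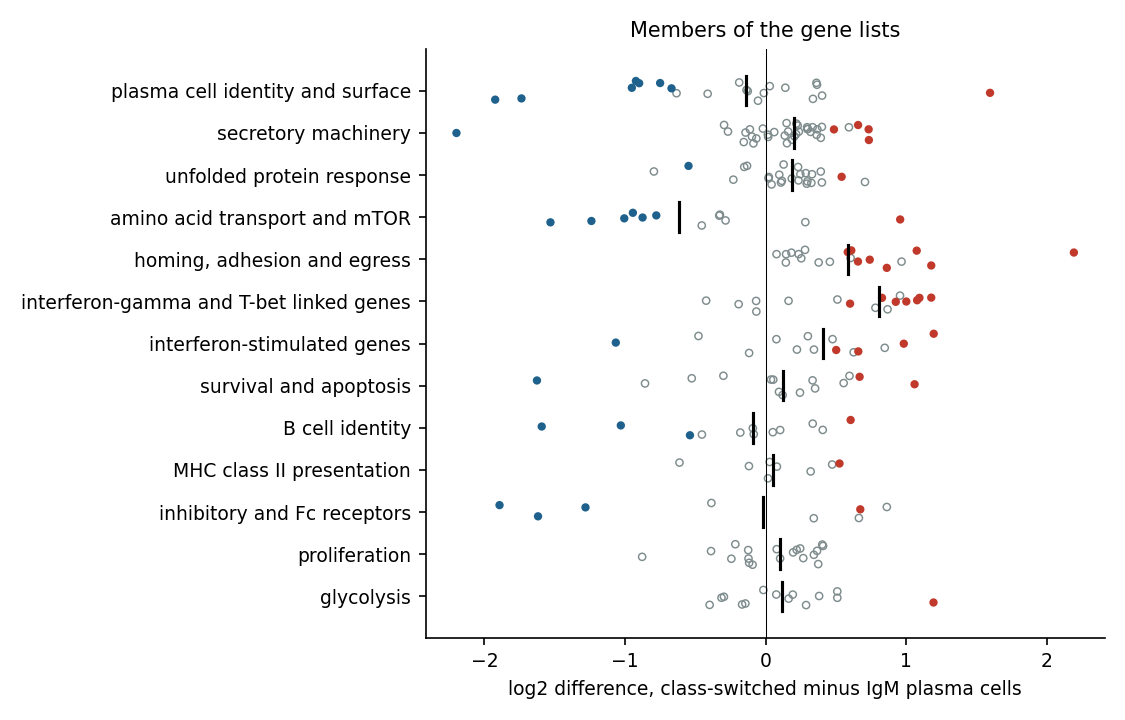
Log2 difference, class-switched minus IgM plasma cells, for each tested member of 13 gene lists; filled points passed the test (red rose, blue fell), open circles did not pass, and a black bar marks the list's median. Homing and interferon-gamma linked genes lie mostly to the right of 0 (medians 0.58 and 0.80), and amino acid transport genes mostly to the left (median -0.62).

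The class-switched cells were then divided by isotype. IgG2c, IgG2b, IgG3 and IgA had at least 10 cells in each SLE.yaa mouse and were compared with IgM and with each other in 1 limma fit over 8988 genes, with the mouse as a block. The 4 comparisons with IgM share the IgM profiles. Levels in this fit are scaled over its own 10 profiles, so those of IgM cells differ slightly from the ones above. Each profile has the same weight, although the IgA profile of SLE.yaa 2 rests on 12 cells and the IgG3 profile of SLE.yaa 1 on 17. Against IgM, 25 genes were called for IgG2c (0.278% of those tested), 16 for IgG2b (0.178%), 63 for IgG3 (0.701%) and 25 for IgA (0.278%), isotype constant genes included. With at least 20 cells per mouse and isotype, which leaves out IgG3 and IgA, the counts were 217 for IgG2c and 202 for IgG2b, and with a pseudocount of 50 they were 55 for IgG2c, 45 for IgG2b, 119 for IgG3 and 38 for IgA. Without the mouse block, 16 genes were called for IgG2c against IgM, 33 for IgG3 against IgM and 13 for IgG2c against IgA. Between switched isotypes 24 genes were called for IgG2c against IgA (0.267%), 30 for IgG2b against IgA (0.334%) and 66 for IgG3 against IgA (0.734%). Within IgG the calls were 2 for IgG2c against IgG2b and 2 for IgG2b against IgG3 (0.0223% each), all immunoglobulin constant genes, and 3 for IgG2c against IgG3 (0.0334%), with Slpi the single other gene. At an unadjusted p under 0.05, 51, 519 and 525 genes other than immunoglobulin constant genes differed in these 3 comparisons.

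Txndc5 was low in the IgG isotypes and not in IgA. In SLE.yaa 1 it stood at 4618 vpm in IgM cells, 594 in IgG3, 673 in IgG2b, 822 in IgG2c and 4292 in IgA. In SLE.yaa 2 it stood at 4188, 442, 748, 722 and 3164 vpm in the same order. All 6 IgG profiles lay below all 4 IgM and IgA profiles. The log2 difference from IgM was -3.08 for IgG3, -2.61 for IgG2b and -2.50 for IgG2c, each ± 0.17 (SE), and -0.25 for IgA, which did not pass (limma adjusted p = 0.520). IgG3 differed from IgA by -2.82, IgG2b by -2.36 and IgG2c by -2.24. The IgG1 cells, too few to test, had 428 and 519 vpm in the 2 mice, scaled by the sum alone as are the WT values. The single IgA cells of the WT mice had 1527 and 6686 vpm, and the IgM plasma cells of the same mice 3777 and 3302.

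Tnfrsf17 was likewise low in the IgG isotypes. Its levels in IgM, IgG3, IgG2b, IgG2c and IgA cells were 285, 35.5, 44.3, 48.2 and 403 vpm in SLE.yaa 1. In SLE.yaa 2 they were 286, 17.2, 31.0, 53.3 and 273 vpm. The IgG profiles again lay below the rest, with log2 differences from IgM of -3.07 for IgG3, -2.65 for IgG2b and -2.28 for IgG2c, against 0.21 for IgA (limma adjusted p = 0.784). Pou2af1 differed from IgM in IgG3 (log2 -1.09) and IgG2c (-1.05), and at 411 and 518 vpm in IgA cells lay near its IgM level of 472 and 521 (log2 -0.10, adjusted p = 0.850). IgG2c against IgA also passed for Pou2af1 (-0.95), though not without the mouse block.

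Pld4 separated IgG from both IgM and IgA. It stood at 77.6, 310, 233, 213 and 16.4 vpm in IgM, IgG3, IgG2b, IgG2c and IgA cells of SLE.yaa 1. In SLE.yaa 2 the values were 59.7, 344, 315, 193 and 14.4. The IgG profiles were the highest and the IgA profiles the lowest in both mice. The IgA levels are near the floor of profiles of 22 and 12 cells, and the fit does not weigh that counting error. Against IgM the log2 difference was 2.11 in IgG3, 1.85 in IgG2b and 1.44 in IgG2c, and -1.62 in IgA (limma adjusted p = 0.00906). Grn, the lysosomal growth factor progranulin, was also higher in IgG: 505 and 672 vpm in IgG3, 658 and 573 in IgG2b and 516 and 573 in IgG2c, against 239 and 231 in IgM and 156 and 158 in IgA. Its differences from IgA were 1.83, 1.90 and 1.73 in the same order, and IgA against IgM did not pass (-0.55, adjusted p = 0.251).

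IgA cells had the highest levels of several trafficking genes. Crip1 stood at 1842 and 978 vpm in IgA cells, 97.0 and 95.5 in IgM cells and 198 to 537 in the 6 IgG profiles. Its log2 difference from IgM was 3.67 in IgA, 1.94 in IgG2c and 1.84 in IgG3, and IgG2b and IgG3 differed from IgA by -2.005 and -1.83. Klf2 stood at 173 and 187 vpm in IgA cells and at most 43.8 in any other profile (IgA against IgM 3.42, limma adjusted p = 0.0190). The gut-homing integrin chain Itgb7 stood at 156 and 144 vpm in IgA cells against 50.5 and 31.8 in IgM cells (log2 1.67). In the IgG profiles Itgb7 ran from 59.9 to 138 vpm, and IgG3 cells of SLE.yaa 2, at 138, were close to the IgA cells of that mouse. The actin-binding Tagln2 stood at 90.4 and 201 vpm in IgA cells against 23.3 and 11.9 in IgM cells (log2 2.43). Ccr10, the chemokine receptor of mucosal IgA plasma cells, stood at 74.0 and 57.5 vpm in IgA and 0 and 0 in IgG3 cells, and IgG3 differed from IgA by -2.91 (adjusted p = 0.0115). IgG2c cells had 20.4 and 15.5 vpm of Ccr10 and IgG2b cells 5.90 and 25.8. Such low levels in profiles of 22 and 12 IgA cells carry counting error that the fit does not weigh. IgA against IgM did not pass for Ccr10 (2.36, adjusted p = 0.0662). The lectin Lgals3 was at 49.3 and 115 vpm in IgA cells and at most 17.7 elsewhere, and IgG2b differed from IgA by -3.11. The interferon-stimulated gene Ifi27l2a stood at 633 and 1136 vpm in IgA cells against 274 and 410 in IgM cells (log2 1.32). In the list of homing, adhesion and egress genes, Klf2, Itgb7 and Crip1 of 22 tested rose in IgA against IgM. Of all genes tested in this comparison 0.278% were called in either direction.

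Other genes were lowest in IgA, at levels near the floor of profiles of 22 and 12 cells, which the adjusted p-values do not take into account. Fgl2, a secreted fibrinogen-like immune regulator, stood at 24.7 and 28.8 vpm in IgA cells, 223 and 163 in IgM cells and 159 to 399 in the IgG profiles (IgA against IgM -2.45, limma adjusted p = 0.00220). All 8 other profiles lay above both IgA profiles. The lipid transfer gene Stard5 was at 24.7 and 14.4 vpm in IgA and 177 and 126 in IgG3 cells, a difference of 2.46 between IgG3 and IgA. Bank1, a B cell scaffold protein, was at 0 and 0 in IgA cells and 70.9 and 34.4 in IgG3 cells. The authors' G2M score also had a lower median in IgA cells, -1.02 and -1.42, than in IgM cells, -0.490 and -0.553, or IgG2c cells, -0.558 and -0.492.

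Slc3a2 and Sfn passed in each of the 4 comparisons with IgM. Slc3a2 differed from IgM by -1.63 in IgG2c, -1.41 in IgG2b, -1.45 in IgG3 and -1.996 in IgA, with 1713 and 1694 vpm in IgM cells and 345 to 861 in the 8 switched profiles. Sfn stood at 66.0 and 67.6 vpm in IgM and at 177 to 275 in the switched profiles, with differences of 1.40, 1.51, 1.80 and 1.65 in the same order. For both genes the IgM profiles did not overlap with the rest.

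Slpi divided the IgG subclasses. IgG3 cells had 1853 and 1406 vpm, close to the 1925 and 2239 of IgM cells, whereas IgG2c cells had 17199 and 9370 and IgG2b cells 8364 and 5757. IgA cells had 3971 and 15202, which is wide apart between the 2 mice, and the untested IgG1 cells 20592 and 14560 on the scale of the sum alone. IgG2c exceeded IgG3 by 2.97 ± 0.44 on the log2 scale (limma adjusted p = 0.0294) and IgM by 2.61. The call between IgG2c and IgG3 was lost without TMM scaling. IgG3 against IgM did not pass (-0.36, adjusted p = 0.839).

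Jchain was lowest in IgG3 cells. It stood at 26044 and 25336 vpm in IgG3, 40449 and 29571 in IgG2b, 50225 and 42301 in IgG2c, 85852 and 70821 in IgM and 160130 and 60578 in IgA cells. IgG profiles lay below IgM profiles in both mice. IgG3 differed from IgM by -1.60 (limma adjusted p = 0.0127) and from IgA by -1.94, and IgG2b from IgA by -1.51. IgG2c against IgM did not pass (-0.76, adjusted p = 0.609).

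**Figure D5:**
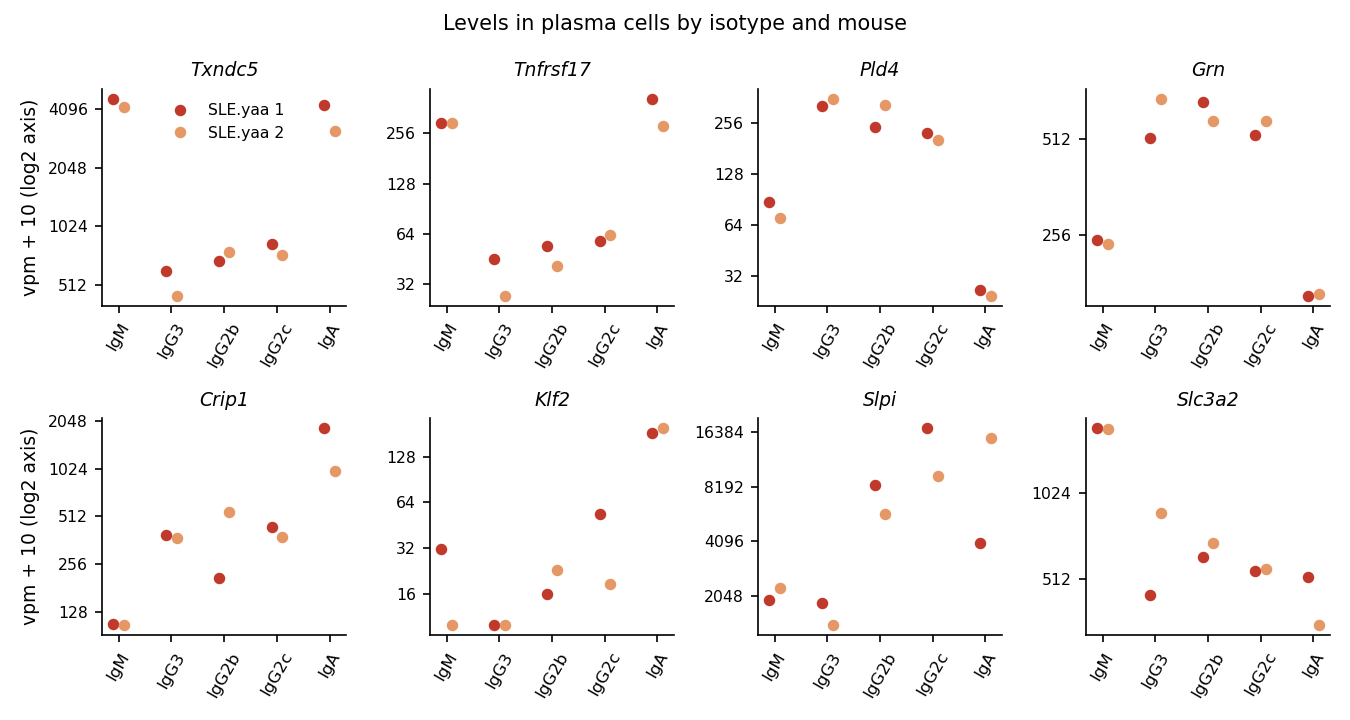
Levels of 8 genes in plasma cells by heavy-chain isotype, as vpm + 10 on a log2 axis, 1 point per SLE.yaa mouse. Txndc5 and Tnfrsf17 are low in the IgG isotypes and high in IgM and IgA, Pld4 and Grn are high in IgG and lowest in IgA, and Slpi is low in IgG3.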

How the data were processed

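Transcript and receptor libraries of 4 spleens were used as deposited. Cell Ranger 5.0.0 and Seurat 4.0.0 stand in the submitters' processing notes, with the build GRCm38; filters and the annotation of plasma cells are the authors'. The deposited expression values are natural logs (ln) of 1 plus a whole number that the authors adjusted for depth in a way that the sources used here do not state. Raw counts had been planned for, so limma replaced edgeR on expression. Also deposited were UMI and gene counts per cell, UMI counts per heavy-chain contig, percent mitochondrial and ribosomal UMIs, the authors' cell cycle and CDR3 charge scores, and the fraction of germline-identical V bases.

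Whole numbers were recovered (within 1.64e-11), averaged per mouse and class, scaled to a sum of 1000000 (vpm) and by TMM, and tested as log2(vpm + 10) with limma 3.58.1 (trend, mouse as block) in R 4.3.3. Genes had to reach 10 vpm in 2 profiles. A gene low in 1 class could thus enter through the other class alone. Upp1, Cldn7 and Hk2, for example, entered through class-switched cells, and Blk and Pdcd1lg2 through IgM cells. In the table of 16094 genes, 15 rows without a gene name (0.0440% of values) were left out. Clone counts were tested with edgeR 4.0.16 on genes with at least 5 clones. The class fit was tested on simulated data. The mouse was a block because both classes came from the same animals, and deviations of a mouse's 2 profiles correlated at 0.20 over genes in the class fit and 0.03 to 0.15 in the isotype fit. Median depth was 3467 to 4695 UMIs per deposited cell. No heavy chain was available for 18 plasma cells. Of the barcodes with expression, 256 occurred in more than 1 mouse. The records do not say whether the mice were chimeras, although the tag that gives the group mentions them.

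Genes named are members of the lists that passed, the 10 genes highest and the 10 lowest among those that passed with immunoglobulin genes left out, up to 3 members per list that did not pass and have the highest levels, the 4 markers, and the 5 highest and 5 lowest per isotype comparison; Irf4, Sdc1, Grn in IgA and IgG2c, and further isotype levels of named genes were added after their values were seen. A few genes that this rule names are not reported here. The members and lists were chosen with earlier results of these data known. Alternatives covered the block, TMM, pseudocounts of 1 and 50, the filter, robust variance, means of log values, clones counted once, immunoglobulin genes left out before scaling, cells with 3 or more genes of another cell type left out, at least 20 cells per isotype, and 2 chosen after seeing the data (IgG alone, and cells with at least 1500 genes).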

Additional observations from a re-analysis of the deposited data

Results flagged for a closer look

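Class-switched heavy chains were also found under barcodes with no expression profile. Those with more than 1000 UMIs on the contig numbered 313 in SLE.yaa 1 and 126 in SLE.yaa 2, against 1 in each WT mouse, and they were singled out because they are a signal outside the cells described above. Of all class-switched heavy-chain cells, 297 of 859 (34.6%) and 314 of 598 (52.5%) were in the expression table in SLE.yaa 1 and SLE.yaa 2, compared with 76.8% and 83.0% of IgM and 90.4% and 90.1% of IgD heavy-chain cells. These shares compare unlike cells, since 96 of 1483 and 49 of 1176 IgM cells in the table were plasma cells. Above 1000 UMIs, 226 and 220 class-switched cells were in the table. For IgM, 107 and 44 such cells were in it and 72 and 10 were not. The median contig UMI count was 6831 and 3537 in the class-switched plasma cells described and 1766 and 478.5 in class-switched cells without a profile. No cell with a profile had more than 2999 genes, and 57.5% of plasma cells but 8.20% of other cells had at least 2500. The part that this limit has in the missing profiles was not tested.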

How the results depend on the processing

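No value reversed under any alternative run. Genes that rose in class-switched cells (173) numbered 26 without the mouse block, 261 without TMM, 87 with a minimum of 50 vpm, where fewer genes are tested, 370 with means of log values, 266 with IgG alone and 295 with cells of at least 1500 genes; genes that fell (174) numbered 51 without the block and 94 at 50 vpm. All 26 and 51 without the block were among the reported genes. For IgG2c against IgM (25) the counts were 16 without the block, 55 with a pseudocount of 50 and 217 with at least 20 cells per isotype, which leaves out IgG3 and IgA. IgG2b against IgM (16) gave 45 and 202 under these last settings. IgG3 against IgM (63) gave 33 without the block, 39 without TMM and 119 with a pseudocount of 50; IgA against IgM (25) gave 38 with that pseudocount, IgG2c against IgA (24) 13 without the block and IgG3 against IgA (66) 137 without TMM. The causes of the other shifts were not tested. The paired fit is the reported one; without the replicate block 44 of 81 class values and 13 of 71 isotype values of single genes no longer passed. Over all alternatives 1190 of 1275 class values and 213 of 233 isotype values counted as unchanged. Another 75 and 20 lost their call, and 10 and 0 gained one, among them Mzb1 in 6 alternatives and Jchain in 4. The 1190 include 81 values without SLE.yaa 1 and 81 without SLE.yaa 2, where 1 mouse gives no p-value. For these only the direction could be compared, which a paired fit on 2 mice nearly fixes for genes it calls. Apoe was lost without the block and with robust variance. Leaving out 1 SLE.yaa mouse gave a mean switched share of 71.0% to 82.4%; counts of genes cannot be had from 1 mouse, which leaves no residual degrees of freedom. A heavy-chain minimum of 10 UMIs removed no cell, since the lowest contig had 11. Depth limits genes near 10 vpm and the IgA and IgG3 profiles of 12 to 31 cells.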

Other observations

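Genes near the heavy-chain locus on chromosome 12 (GRCm38) were looked up after Crip1 and Pld4 were seen to be among the genes that rose most. Igha lies at 113256204 to 113260236 and Ighm at 113418826 to 113422730. Crip1, at 113152012 to 113153879, lies 102 kb beyond the Igha end of the constant gene cluster and Pld4, at 112760446 to 112768986, lies 487 kb beyond it. Of 13 genes tested within 1 Mb on that side of Igha, 2 rose in class-switched cells, Crip1 and Pld4, and 1 fell, Adssl1 at 112620047 to 112641355 (218 and 117 vpm in IgM against 78.8 and 51.3 in class-switched cells, log2 -1.21), where 4.32% of all genes tested were called in either direction. Nothing is read from this count, since the window was chosen for its genes. Crip1 was highest in IgA and Pld4 lowest in IgA, so these neighbours did not share an order over the isotypes.

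The authors' heat shock score had medians of -1.05 and -1.02 in class-switched plasma cells of SLE.yaa 1 and SLE.yaa 2 and of -2.48 and -5.11 in IgM plasma cells. One heavy-chain junction occurred in class-switched plasma cells of both SLE.yaa mice, and 13 plasma cells had more than 1 IGHV gene called.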
